A study of Mus musculus with 13 samples.

Results

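Thyroid hormone signalling in the postnatal mouse cerebellum was followed through 8 genes chosen by name, Slco1c1, Dio2, Thra, Thrb, Ncor1, Ncoa1, Klf9 and Hr. They are 8 of the 22667 genes of the deposited expression table, and 176 of the 283765 events of the deposited splicing table belong to them. The 13 RNA-seq libraries were made from cerebella of C57BL/6 mice. The groups were Sam68 knockout (KO) at postnatal day 1 (P1, libraries 13, 14 and 15), wild type (WT) at P1 (libraries 8 and 9), KO at P10 (libraries 10, 11 and 12), WT at P10 (libraries 5 and 6) and WT at P30 (libraries 1, 2 and 3), with no KO group at P30. Sam68, encoded by Khdrbs1, is an RNA-binding protein that regulates alternative splicing, and the study asked how it acts on splicing as the cerebellum develops. The labels call the mutant a knockout and a null, and they give neither the allele nor whether each library had its own animal, so the p-values speak of the spread among libraries, which may be technical.

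Thyroid hormone reaches the brain mainly as thyroxine (T4), is converted there to the active form T3, and acts through nuclear receptors that sit on target genes. Without T3 a receptor holds a co-repressor complex on the gene, and with T3 it exchanges this for co-activators. In the cerebellum the hormone is needed for granule cell migration, Purkinje cell dendrite growth and myelination after birth, and its shortage in this period delays all of them.

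The expression unit is cRPKM, an RPKM with transcript length counted over its mappable positions, so levels can be set side by side between genes. A log2 fold change here is the difference between 2 groups in the mean of log2(cRPKM + 1), given with its standard error (SE), and it understates the change of genes near 0. All 8 genes were among the 14063 genes tested together in limma, and a gene was called at a Benjamini-Hochberg adjusted p below 0.05. The comparisons share libraries: those of WT P10, for example, were set against WT P1, WT P30 and KO P10.

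The spacing of the low cRPKM values showed that they rest on 0.0928 to 3.88 M reads per library, and on less than 1 M in 5 libraries (KO P1 libraries 13 and 15, KO P10 libraries 11 and 12, WT P10 library 5). The splicing table held 17.59 to 29.72 M junction reads per library. A second measure was therefore tested beside cRPKM, the spliced reads over each gene's introns per 1000000 junction reads of the library (junction RPM). For Klf9 and Dio2 this rests on 1 intron each. The log2 fold change of this measure takes log2(junction RPM + 1) and likewise understates the change of genes near 0. A gene listed at 0 cRPKM was not absent for that reason: library 15 listed 1864 of its 11242 genes with at least 50 junction reads at 0. Khdrbs1 itself had 5.42, 4.22 and 8.5 cRPKM in KO P1 and 2.06, 1.28 and 3.59 in KO P10, against 56.45 and 74.4 in WT P1 and 61.2 and 56.2 in WT P10, lower in every KO library. The plot of reads behind each value shows where the counts are thin.

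**Figure D1:**
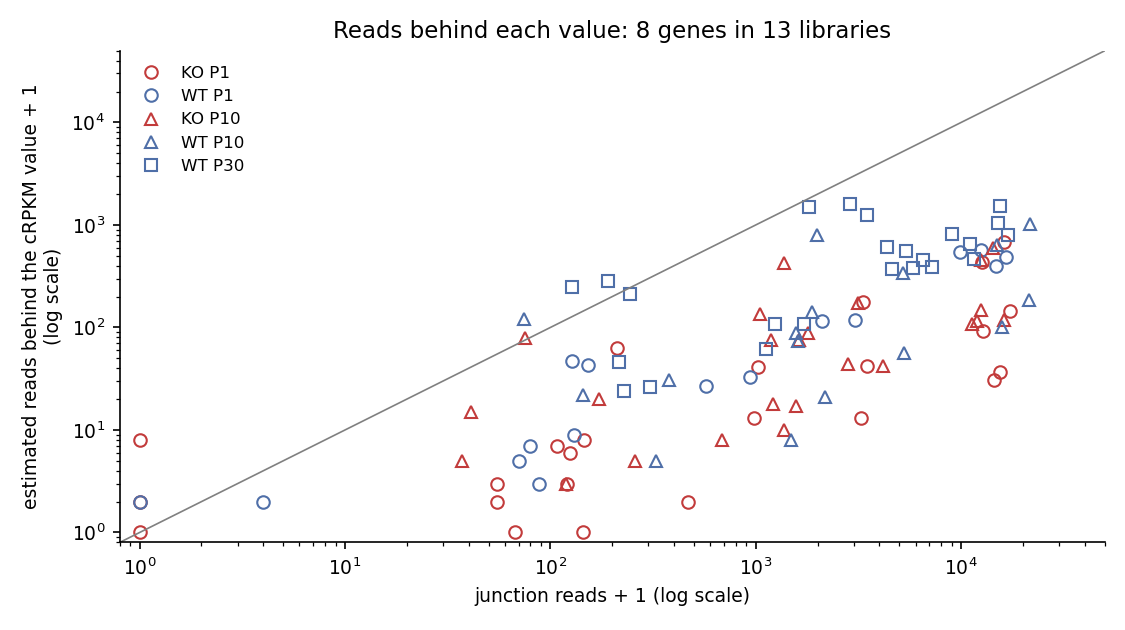
Each point is 1 of the 8 genes in 1 library, with its junction reads in the splicing table on the x axis and the estimated reads behind its cRPKM value on the y axis (both plus 1, log scales; the line marks equal numbers). Nearly all points lie below the line. At P1 (circles) Dio2 rests on few reads on either axis, and Hr and Thrb on few on the y axis.

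The activating enzyme Dio2 and the target genes Klf9 and Hr rose between P1 and P10 in both genotypes. The receptor gene Thra was lower at P30 than at P1, the co-activator gene Ncoa1 was higher at P30 than at P1, and Slco1c1, Thrb and Ncor1 passed no age test in cRPKM. No gene passed a test between KO and WT.

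**Figure D2:**
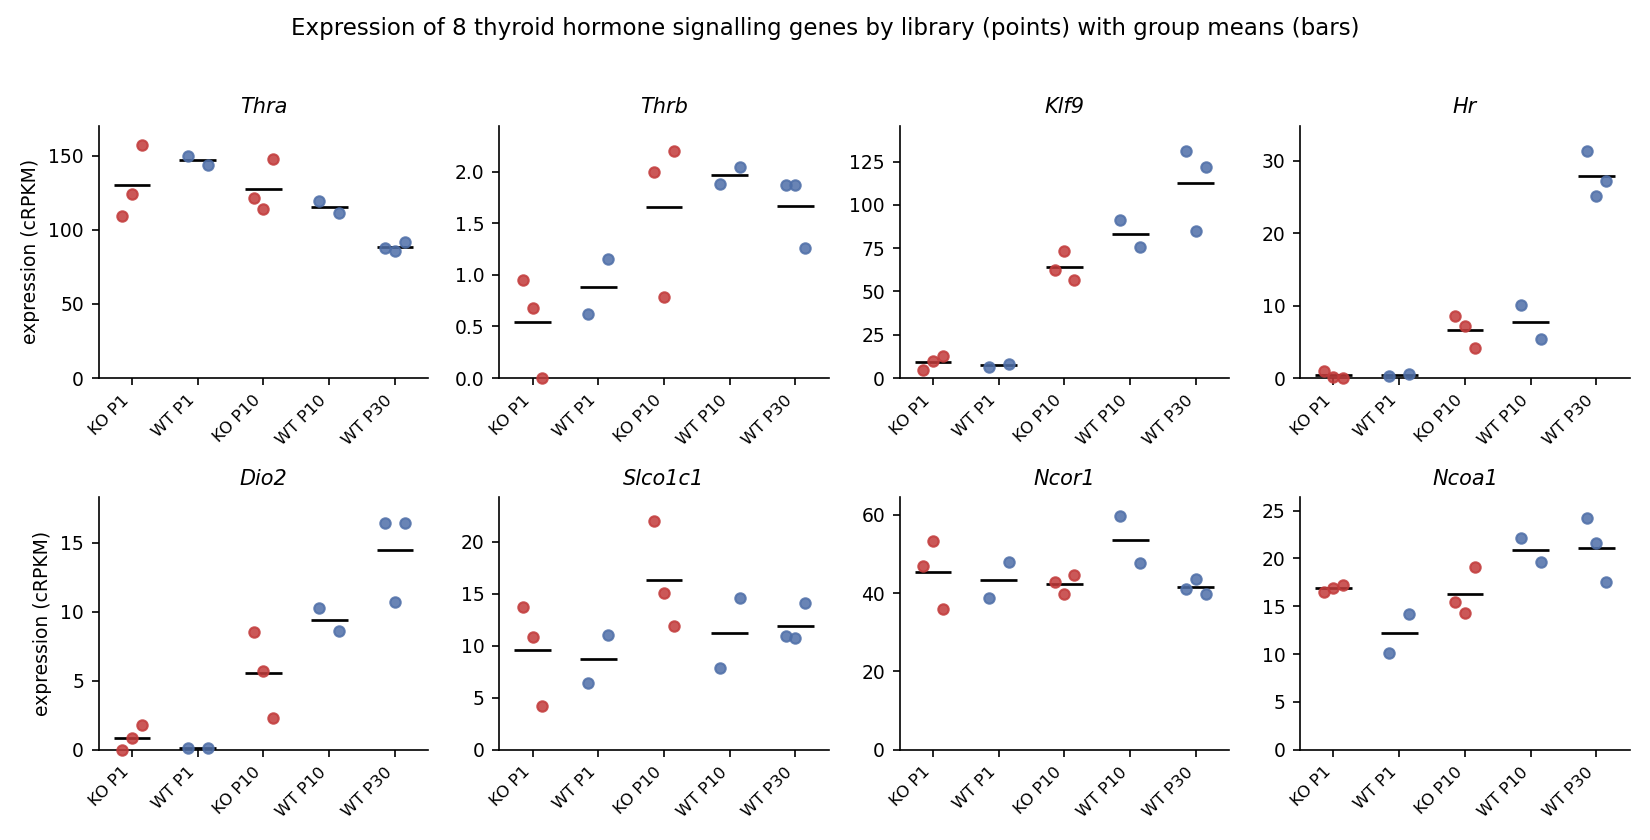
Expression in cRPKM (y axis, linear, separate scale per gene) of the 8 genes in each library (points) of the 5 groups (x axis), with group means as bars; KO is red and WT blue. Klf9, Hr and Dio2 lie near 0 at P1 and climb at P10 in both genotypes, and Hr climbs again at P30.

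Slco1c1 encodes OATP1C1, a thyroxine transporter of the blood-brain barrier endothelium and of astrocytes. It had 13.7, 10.8 and 4.17 cRPKM in the KO P1 libraries, 6.45 and 11.03 in WT P1, 22.0, 15.1 and 11.9 in KO P10, 7.89 and 14.6 in WT P10, and 10.97, 10.7 and 14.1 in WT P30. All 5 groups overlapped with their neighbours in the order of means, and library 15, the lowest, rests on about 1 read. The difference between WT P10 and WT P1 was 0.31 (SE 0.48, adjusted p = 0.844), and that between KO P10 and KO P1 was 0.80 (SE 0.39, adjusted p = 0.217). Counted from junction reads, Slco1c1 rose in the knockout, with 82.3, 76.2 and 62.7 junction RPM in KO P10 against 42, 48.2 and 22.6 in KO P1 (log2 fold change 1.01, SE 0.24, adjusted p = 0.00366). Each KO P10 library lay above each KO P1 library. In WT the P10 libraries had 56.5 and 53.1 and the P1 libraries 32.5 and 40 junction RPM, which did not pass (0.59, SE 0.29, adjusted p = 0.15). The genotype difference in this age effect was not called for Slco1c1 (0.42, SE 0.37, adjusted p = 0.748). The 14 listed endothelial and pericyte markers summed to 179.2 to 222.7 cRPKM in KO P1, 188.6 to 205.1 in WT P1, 176.4 to 213.4 in KO P10, 169.3 to 201.2 in WT P10 and 157.3 to 243.5 in WT P30, and none was at 0 throughout a group. The part of these cells in the Slco1c1 levels was not tested. In such bulk tissue fewer cells of a type and less RNA per cell cannot be told apart.

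Dio2 encodes the type 2 deiodinase, which converts T4 to T3 and in brain is found mainly in glia. It was listed at 0, 0.82 and 1.81 cRPKM in KO P1 and at 0.11 and 0.15 in WT P1. By P10 it had 8.56, 5.73 and 2.30 in KO and 10.3 and 8.60 in WT, and at P30 it had 16.4, 10.7 and 16.4 in WT. The P10 libraries lay above all P1 libraries in both genotypes, and the lowest P30 library lay just above the highest WT P10 library. The rise passed in WT (P10 over P1, log2 fold change 3.20, SE 0.55, adjusted p = 0.00623) and in KO (1.79, SE 0.45, adjusted p = 0.0264). The P1 values stand for 0 to 7 reads, and the 1.81 cRPKM of library 15 for about 1. Junction reads were as scarce, with 0, 0 and 0 in KO P1 and 3 and 0 in WT P1, against 74, 40 and 36 in KO P10 and 143 and 73 in WT P10, and they gave 244, 126 and 189 in WT P30. On this measure Dio2 also rose between P10 and P30 (0.77, SE 0.27, adjusted p = 0.0284), which cRPKM did not show (0.55, SE 0.50, adjusted p = 0.546). The WT rise to P10 was not called in cRPKM without WT P1 library 8 (adjusted p = 0.0634) or WT P10 library 5 (0.068), and the KO rise was not called without libraries 13, 10 or 11 (0.0733, 0.103 and 0.082).

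Beside Dio2, the 15 listed Bergmann glia and astrocyte markers summed to 1450 to 1697 cRPKM in KO P1, 1661 to 1768 in WT P1, 2350 to 2649 in KO P10, 2188 to 2495 in WT P10 and 1896 to 2472 in WT P30. The sums were higher at P10 than at P1 in every library. Of the 15 markers, 4 rose and 1 fell in WT P10 over P1, and 6 rose and 0 fell in KO P10 over P1. In WT P30 over P10, 4 rose and 4 fell. Among the 4 with the smallest p in WT P10 over P1, Gfap, of the astrocyte intermediate filament, rose by 4.85 (SE 0.51). Aqp4, of the water channel of astrocyte endfeet, rose by 3.04 (SE 0.39). Both were among the 4 called lower in WT P30 over P10, while another 4 of the 15 were called higher. The GABA transporter gene Slc6a11 fell to 29.5 ± 5.03 cRPKM in WT P10, against 121 ± 41.2 in WT P1 (−1.97, SE 0.30, adjusted p = 0.00341). The part of these cells in the rise of Dio2 was not tested. The 250 bases before the start of Dio2 (RefSeq, GRCm38.p6, chr12:90739039-90739288, minus strand) are shown because Dio2 is the step that sets local T3. Capitals mark TGACGTCA, the cAMP response element motif, chosen after the sequence was seen, which begins 95 bases before the start and stands in 1.55% of 32851 promoter windows of this length.
Dio2: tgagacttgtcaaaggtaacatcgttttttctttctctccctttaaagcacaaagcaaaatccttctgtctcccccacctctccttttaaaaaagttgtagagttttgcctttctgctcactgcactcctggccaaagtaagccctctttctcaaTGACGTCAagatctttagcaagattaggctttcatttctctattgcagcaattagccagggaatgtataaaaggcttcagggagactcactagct

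Thra encodes the receptor TRα, the main form in brain, together with the α2 splice form, which does not bind T3. Its levels were 109, 124 and 157 cRPKM in KO P1, 149.7 and 144 in WT P1, 121, 114 and 148 in KO P10, 119.5 and 112 in WT P10, and 87.8, 86.0 and 91.9 in WT P30. Thra was the most abundant of the 8 genes at P1 and P10, and the P30 libraries lay below all others. Thra fell to 88.5 ± 3.02 cRPKM in WT P30 (SD, n = 3), against 147 ± 4.16 in WT P1 (SD, n = 2; log2 fold change −0.72, SE 0.16, adjusted p = 0.00586). The difference between P30 and P10 did not pass in cRPKM (−0.38, SE 0.16, adjusted p = 0.15) and passed in junction RPM, with 412, 389 and 426 in WT P30 against 601 and 504 in WT P10 (−0.43, SE 0.14, adjusted p = 0.0178). Nr1d1, the gene of the clock repressor REV-ERBα, lies on the opposite strand and shares 263 exonic bases with Thra. It had 6.05 and 5.17 cRPKM in WT P1, 12.7 and 11.96 in WT P10 and 58.8, 57.8 and 75.3 in WT P30, and whether the authors' counting used strand is not stated in the sources used here.

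Thrb encodes the receptor TRβ, which in rodent brain appears later than TRα. It had 0.95, 0.68 and 0 cRPKM in KO P1, 0.62 and 1.15 in WT P1, 2.00, 0.79 and 2.20 in KO P10, 1.88 and 2.05 in WT P10, and 1.87, 1.87 and 1.26 in WT P30. The WT P10 libraries lay above both WT P1 libraries, and the KO groups overlapped. Library 15, listed at 0, held 143 junction reads of Thrb, more than either other KO P1 library (119 and 107). In cRPKM no age comparison passed (WT P10 over P1, 0.67, SE 0.44, adjusted p = 0.529). In junction RPM Thrb rose, with 12.3 and 12.7 in WT P10 against 4.49 and 5.53 in WT P1 (1.17, SE 0.26, adjusted p = 0.00322). In KO the P10 libraries had 7.86, 5.73 and 11.8 and the P1 libraries 5.1, 5.03 and 6.91, which overlapped and did not pass (0.46, SE 0.21, adjusted p = 0.097). The genotype difference in this age effect was not called (−0.71, SE 0.33, adjusted p = 0.686). On the cRPKM scale every Thra value stood above every Thrb value.

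Ncor1 encodes a large co-repressor that unliganded receptors bind. Its levels were 47.0, 53.4 and 36.0 cRPKM in KO P1, 38.7 and 48.0 in WT P1, 42.9, 39.9 and 44.6 in KO P10, 59.7 and 47.7 in WT P10, and 41.1, 43.7 and 39.8 in WT P30. All neighbouring groups overlapped in the order of means, though every WT P30 library lay below both WT P10 libraries. No age comparison passed in cRPKM, with 0.30 for WT P10 over P1 (SE 0.20, adjusted p = 0.531) and −0.36 for WT P30 over P10 (SE 0.18, adjusted p = 0.241).

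Ncoa1 encodes SRC-1, a co-activator recruited by hormone-bound receptors. It had 16.5, 16.9 and 17.2 cRPKM in KO P1, 10.2 and 14.2 in WT P1, 15.4, 14.3 and 19.1 in KO P10, 22.1 and 19.6 in WT P10, and 24.2, 21.6 and 17.5 in WT P30. In WT the P10 and P30 libraries lay above both P1 libraries, while KO P10 and KO P1 overlapped. The mean rose to 21.1 ± 3.37 cRPKM in WT P30 (SD, n = 3), against 12.2 ± 2.88 in WT P1 (SD, n = 2; log2 fold change 0.75, SE 0.21, adjusted p = 0.0224). That call was lost without WT P1 library 8 (adjusted p = 0.19) and without WT P30 library 1 or 2 (0.0912 and 0.0677). In cRPKM WT P10 over P1 did not pass (0.74, SE 0.24, adjusted p = 0.118), and WT P30 over P10 gave 0.01 (SE 0.21). In junction RPM the rise to P10 passed, with 199 and 175 in WT P10 against 120 and 130 in WT P1 (0.58, SE 0.16, adjusted p = 0.0119). The same measure gave 0.01 in KO P10 over P1 (SE 0.13, adjusted p = 0.956).

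Klf9 encodes a zinc finger transcription factor and is a direct T3 target in neurons. It had 4.44, 9.68 and 13 cRPKM in KO P1, 6.58 and 8.32 in WT P1, 62.4, 73.4 and 56.6 in KO P10, 91.3 and 75.5 in WT P10, and 131, 84.9 and 122 in WT P30. Every P10 library stood above every P1 library with a wide gap, and both WT P10 libraries stood above all KO P10 libraries. Klf9 rose to 83.4 ± 11.2 cRPKM in WT P10 (SD, n = 2), against 7.45 ± 1.23 in WT P1 (SD, n = 2; log2 fold change 3.32, SE 0.36, adjusted p = 0.000421). It rose to 64.2 ± 8.51 in KO P10, against 9.04 ± 4.32 in KO P1 (SD, n = 3 each; 2.79, SE 0.30, adjusted p = 0.000185). The P30 libraries overlapped with those of WT P10 (0.41, SE 0.33, adjusted p = 0.487), and junction reads, at 123, 78.2 and 111 RPM in WT P30 against 71.1 and 66.6 in WT P10, gave a rise (0.56, SE 0.21, adjusted p = 0.0387). The calls between P1 and P10 held under every alternative run.

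The 250 bases before the start of Klf9 (RefSeq, GRCm38.p6, chr19:23140976-23141225, plus strand) are shown as the promoter of a target gene whose rise to P10 held under every alternative run. They were searched on both strands for AGGTCA, the core letters a thyroid hormone receptor binds, and for its direct repeat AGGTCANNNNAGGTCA, and neither was found there or in the Dio2 window. AGGTCA stands in 14% and the repeat in 0.0152% of the 32851 windows. The absence of a repeat this rare says little, and only these exact letters within 250 bases were sought. The search therefore cannot tell whether a gene has a receptor site. Of the 2 Thrb windows, 1 held AGGTCA, and the windows of Slco1c1, Ncor1 and Ncoa1 held neither. Thra and Hr had no entry.
Klf9: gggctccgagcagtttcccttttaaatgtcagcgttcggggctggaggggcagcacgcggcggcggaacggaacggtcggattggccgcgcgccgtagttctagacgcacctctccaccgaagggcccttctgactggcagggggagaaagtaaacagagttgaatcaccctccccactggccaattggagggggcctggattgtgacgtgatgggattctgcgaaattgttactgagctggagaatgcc

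Hr encodes Hairless, a nuclear co-repressor that binds thyroid hormone receptors and is itself a direct T3 target in brain. It was listed at 1.03, 0.12 and 0 cRPKM in KO P1 and at 0.22 and 0.62 in WT P1. At P10 it had 8.54, 7.21 and 4.17 in KO and 10.2 and 5.46 in WT, and at P30 it had 31.4, 25.1 and 27.2 in WT. The ages were separated without overlap at both steps, and the genotypes overlapped at both ages. Hr rose by P10 in WT (log2 fold change over P1 2.59, SE 0.45, adjusted p = 0.00663) and in KO (2.49, SE 0.37, adjusted p = 0.00154). It rose again to 27.9 ± 3.17 cRPKM in WT P30 (SD, n = 3), against 7.81 ± 3.32 in WT P10 (SD, n = 2; 1.76, SE 0.41, adjusted p = 0.0129).

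The cRPKM of Hr at P1 rests on few reads, while its junction reads gave 2.31, 2.54 and 3.19 RPM in KO P1, 4.95 and 2.94 in WT P1, 74.2, 58.9 and 31.4 in KO P10, 82.6 and 54.1 in WT P10, and 256, 233 and 251 in WT P30. On this measure Hr rose between P1 and P10 by 3.85 in KO (SE 0.26, adjusted p = 5.11e-08) and by 3.81 in WT (SE 0.32, adjusted p = 7.65e-07). The call of Hr between P30 and P10 was lost without WT P10 library 6 (adjusted p = 0.128) or WT P30 library 1 (0.0571) and with a pseudocount of 0.1 (0.203). Its call between P10 and P1 in WT was lost without library 8 (0.0758) or 5 (0.0857).

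Beside Klf9 and Hr, markers of maturing cerebellar neurons moved with age. The 10 listed mature granule cell markers summed to 452.9 to 463 cRPKM in KO P1, 480.1 to 514.2 in WT P1, 966.9 to 1391 in KO P10, 1226 to 1491 in WT P10 and 4056 to 4298 in WT P30. The 10 granule cell precursor markers summed to 62.81 to 72.15 cRPKM in WT P30, against 368.9 to 439.8 in WT P10. At P1 they summed to 256.5 to 464.1 in WT and 414.8 to 521.3 in KO, and in KO P10 to 324.7 to 444.5. Of these 10, 0 were called in P10 over P1 in either genotype. Of the 10 listed Purkinje cell markers 9 are in the table, and they summed to 603.4 to 769.2 cRPKM in WT P1, 1223 to 1349 in WT P10 and 1692 to 2030 in WT P30. Of these 9, 4 rose and 1 fell in WT P10 over P1. The one that fell, the transcription factor gene Foxp2, had 3.55 ± 0.212 cRPKM in WT P10, against 25.4 ± 8.38 in WT P1 (−2.50, SE 0.36, adjusted p = 0.00216). Their part in the rise of the target genes was not tested.

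Of the 8 genes, 3 were called between WT P10 and WT P1, all higher (Klf9, Hr, Dio2), where 2.2% of the genes tested were called higher, 1.85% lower and 4.05% in either direction. Between KO P10 and KO P1 the same 3 were called higher, with 5.58% of genes called higher, 4.59% lower and 10.2% in either direction. Between WT P30 and WT P10 only Hr was called higher, with 5.02% of genes higher, 9.73% lower and 14.7% in either direction. Between WT P30 and WT P1 Klf9, Hr, Dio2 and Ncoa1 were called higher and Thra lower, with 9.66% of genes higher, 15.8% lower and 25.4% in either direction. The median log2 fold change of the 8 was 0.7 in WT P10 over P1 (0.01 for all genes), 0.8 in KO P10 over P1 (0.04), 0.07 in WT P30 over P10 (−0.13) and 0.63 in WT P30 over P1 (−0.13). With each library centred on its median, 940 genes were called higher and 971 lower between WT P30 and WT P10, against 706 and 1368 without centring.

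Junction reads called more of the 8 and more of all genes. They called 5 of the 8 higher in WT P10 over P1 (Dio2, Hr, Klf9, Ncoa1 and Thrb) beside 13.1% of genes higher, 14.2% lower and 27.4% in either direction, and 4 in KO P10 over P1 (Dio2, Hr, Klf9 and Slco1c1) beside 18% higher, 18.8% lower and 36.8% in either direction. In WT P30 over P10 they called Dio2, Hr and Klf9 higher and Thra lower, beside 17% of genes higher, 31.4% lower and 48.3% in either direction. In WT P30 over P1 they called 5 of the 8 higher and Thra lower, beside 23.1% of genes higher, 38% lower and 61.1% in either direction.

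**Figure D3:**
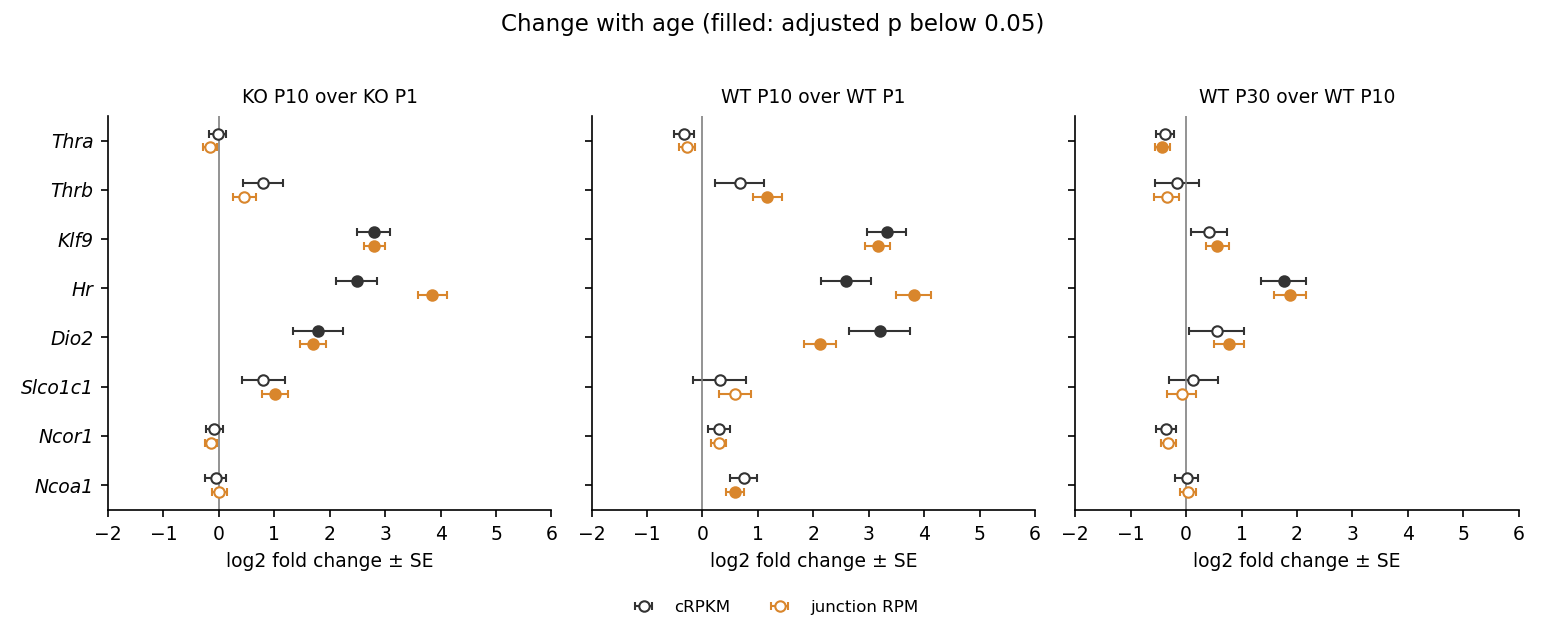
Log2 fold change with age ± SE (x axis) of the 8 genes (rows) in KO P10 over P1, WT P10 over P1 and WT P30 over P10, from cRPKM (black) and from junction RPM (orange); filled points have an adjusted p below 0.05. Klf9, Hr and Dio2 are filled on both measures in both P10 panels, and Hr is filled on both at P30.

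To ask whether the pathway's genes depend on Sam68, KO was compared with WT at each age. At P1, 0 of the 8 were called in limma, beside 0.0356% of genes in either direction. At P10, 0 of the 8 were called, beside 0.00711% of genes. At an unadjusted p below 0.05 the count was also 0 of 8 at each age, beside 6.78% of genes at P1 and 5.32% at P10. Junction reads called 0 of 8 at each age, beside 0.00772% of genes at P1 and 0.0154% at P10. At an unadjusted p below 0.05 they gave 1 of the 8 at P1 (Ncoa1), beside 9.53% of genes, and 1 at P10 (Thrb), beside 14.6%.

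The smallest p at P1 was that of Ncoa1, whose 3 KO libraries, at 16.5, 16.9 and 17.2 cRPKM, all lay above the WT libraries at 10.2 and 14.2 (log2 fold change 0.45, SE 0.21, unadjusted p = 0.0557, adjusted p = 0.735). It was the single gene of the 8 whose KO and WT libraries did not overlap at P1, where 18.5% of all genes did not. At P10 the order was the other way, with 15.4, 14.3 and 19.1 in KO against 22.1 and 19.6 in WT (−0.35, SE 0.21, adjusted p = 0.902). The difference between the genotype effects at P10 and P1 was −0.80 for Ncoa1 (SE 0.30, unadjusted p = 0.0214, adjusted p = 0.854), and 0 of the 8 were called, beside 0.0142% of genes. At an unadjusted p below 0.05 there was 1 of the 8, beside 5.18% of genes. Junction reads called 0 of the 8 and 0% of genes in this test, with −0.57 for Ncoa1 (SE 0.20, adjusted p = 0.686). At an unadjusted p below 0.05 they gave 3 of the 8 (Ncoa1, Ncor1 and Thrb), beside 7.07% of genes.

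At P10, 4 of the 8 had KO libraries all below the WT libraries (Dio2, Klf9, Ncoa1 and Ncor1), against 10.4% of all genes in that direction and 19% in either. Klf9 had 64.2 ± 8.51 cRPKM in KO P10 and 83.4 ± 11.2 in WT P10 (SD, n = 3 and 2; −0.38, SE 0.33, adjusted p = 0.918). Dio2 had 5.53 ± 3.13 in KO P10 and 9.44 ± 1.19 in WT P10 (−0.80, SE 0.50, adjusted p = 0.903), and Ncor1 42.4 ± 2.37 in KO P10 and 53.7 ± 8.44 in WT P10 (−0.33, SE 0.18, adjusted p = 0.894). None of these passed the test. In junction RPM Dio2 had 3.38, 1.94 and 1.65 in KO P10 against 5.42 and 2.46 in WT P10, and Ncor1 had 655, 610 and 742 in KO P10 against 809 and 726 in WT P10. Ncoa1 had 144, 136 and 191 in KO P10 against 199 and 175 in WT P10, so that all 3 overlapped on that measure. Klf9, with 62.6, 51.1 and 54.3 in KO P10 against 71.1 and 66.6 in WT P10, stayed apart, as did Thrb, with 7.86, 5.73 and 11.8 in KO P10 against 12.3 and 12.7 in WT P10 (−0.56, SE 0.23, adjusted p = 0.303). Slco1c1 lay apart the other way, with 82.3, 76.2 and 62.7 in KO P10 above 56.5 and 53.1 in WT P10 (0.41, SE 0.26, adjusted p = 0.483). The share of all genes that lay apart on this measure was not counted. Of the 5 libraries at P10, KO libraries 11 and 12 and WT library 5 are among those with under 1 M reads behind cRPKM.

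**Figure D4:**
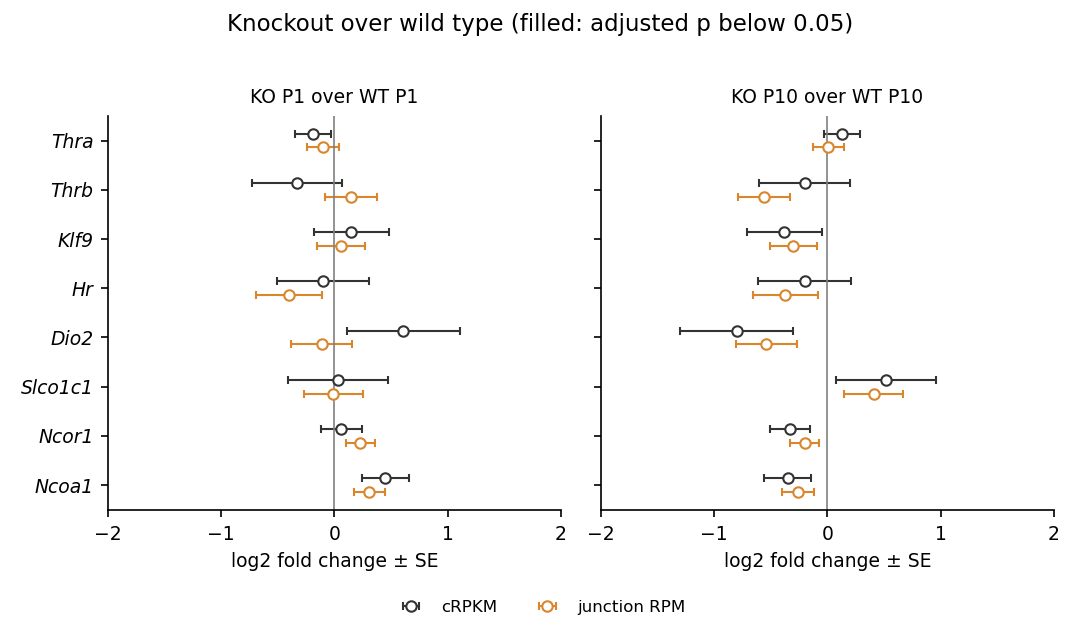
Log2 fold change of KO over WT ± SE (x axis) of the 8 genes (rows) at P1 and at P10, from cRPKM (black) and junction RPM (orange). No point is filled, since no adjusted p was below 0.05, and all points lie between −1 and 1.

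The wider pathway was read through 4 lists, whose counts stand beside the shares of all genes called that are given above for each comparison. Of 11 genes of hormone transport and metabolism, 9 could be tested. In WT P30 over P10 the transporter genes Slc7a8 (15.7 ± 3.04 cRPKM in WT P30 and 5.18 ± 1.29 in WT P10, log2 fold change 1.44, SE 0.37, adjusted p = 0.0201) and Slco1a4 (14 ± 2.61 in WT P30 and 4.01 ± 0.587 in WT P10, 1.57, SE 0.41, adjusted p = 0.0241) rose, and 0 fell. Both rose in WT P30 over P1, where the amino acid and hormone transporter gene Slc7a5 fell. In KO P10 over P1 Slco1a4 rose and Slc7a5 and Crym, the gene of a T3-binding protein, fell. Of the 9, 0 were called in WT P10 over P1, and Dio3, the hormone-inactivating deiodinase, was listed at 0 in both WT P10 libraries (unadjusted p = 0.0243, adjusted p = 0.215). The medians of the list were −0.3 in WT P10 over P1 (0.01 for all genes) and 0.42 in WT P30 over P10 (−0.13 for all genes).

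Among 11 receptor partners and co-repressors 0 were called in WT P10 over P1 and WT P30 over P10. Between WT P30 and WT P1 0 rose and 2 fell, Rxrg, a retinoid X receptor that pairs with thyroid hormone receptors, and the nuclear receptor gene Nr2f1. In KO P10 over P1 only Rxrg fell. The list's median was −0.6 in WT P30 over P10, where that of all genes was −0.13. Of 12 co-activators, the acetyltransferase gene Kat2b rose to 27.7 ± 0.968 cRPKM in WT P30, against 11.8 ± 4.57 in WT P10 (1.21, SE 0.37, adjusted p = 0.0449). The arginine methyltransferase gene Prmt1 fell to 31.2 ± 5.03 in WT P30, against 74.1 ± 6.98 in WT P10 (−1.23, SE 0.18, adjusted p = 0.000823). These 2 were called again in WT P30 over P1, where Carm1, a related methyltransferase gene, fell, and in KO P10 over P1 Carm1 fell and 0 rose.

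Of 28 genes described as hormone-responsive in brain, 14 rose and 1 fell in WT P10 over P1, where 2.2% of all genes were called higher and 1.85% lower, and the median was 1.62 (0.01 for all genes). In WT P30 over P10 7 rose and 0 fell, beside 5.02% and 9.73% (median 0.48, and −0.13 for all genes). In WT P30 over P1 19 rose and 1 fell, beside 9.66% and 15.8% (1.81, and −0.13 for all genes), and in KO P10 over P1 13 rose and 1 fell, beside 5.58% and 4.59% (1.22, and 0.04 for all genes). The 4 with the smallest p in WT P10 over P1 encode myelin proteins. Mbp, of myelin basic protein, rose to 1264 ± 170 cRPKM in WT P10, against 32 ± 10.2 in WT P1 (5.29, SE 0.52, adjusted p = 0.00021), and Mag, Mobp and Cnp rose by 4.72, 4.52 and 2.67. The neurofilament gene Nefm was the one that fell. By P30 Atp2a2, of the endoplasmic reticulum calcium pump, rose to 217 ± 19.6 cRPKM in WT P30 against 120 ± 23.6 in WT P10 (0.86, SE 0.15, adjusted p = 0.00287), and Camk4, a calcium-dependent kinase gene, rose to 119 ± 12 in WT P30 against 60.8 ± 2.59 in WT P10 (0.96, SE 0.17, adjusted p = 0.00315). Oligodendrocyte markers not in this list summed to 88.85 to 107.9 cRPKM in KO P1, where Ermn and Opalin were at 0, 133.5 to 139.8 in WT P1, where Opalin was at 0, 176.6 to 276.8 in KO P10, 187.7 to 244.2 in WT P10 and 319.8 to 415.6 in WT P30. Of these 11 markers, 5 rose and 1 fell in WT P10 over P1, and 4 rose and 2 fell in WT P30 over P10. Their part in the list's rise was not tested.

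Between genotypes 0 genes of the 4 lists were called at either age. At P10 the responsive gene with the smallest p was Camk4, with 39.7 ± 5.14 in KO P10 and 60.8 ± 2.59 in WT P10 (−0.61, SE 0.17, adjusted p = 0.884). Among receptor partners Rxrb had 9.5 ± 2.64 in KO P10 and a WT P10 mean of 18.2 (−0.90, SE 0.27, adjusted p = 0.884). The medians of the responsive genes were −0.22 at P1 and −0.06 at P10, beside −0.04 and −0.03 for all genes.

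Splicing was measured as percent inclusion (PSI), the share of reads that include an exon or keep an intron. Of the 176 events, Ncor1 holds 77, Ncoa1 36, Hr 22, Slco1c1 15, Thrb 13, Thra 11 and Klf9 and Dio2 1 each. With at least 10 reads in 2 or more libraries of each group compared and a mean PSI of 5 to 95, 41 could be tested in at least 1 comparison: 20 of Ncor1, 9 of Slco1c1, 5 of Hr, 4 of Ncoa1 and 3 of Thrb. An event was called at an adjusted p below 0.05 over all events tested and a difference of at least 10 points. No called event separated KO from WT, and the called events between ages lay in the co-regulator genes Ncor1 and Ncoa1.

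A 174 nt exon of Ncor1 (event MmuEX0031194, mm9 chr11:62173263-62173436, minus strand) was included less with age. Its PSI was 28.9, 32.5 and 29.1% in KO P1, 32.1 and 38.3% in WT P1, 25.3, 28.2 and 24.3% in KO P10, 32.6 and 23.4% in WT P10, and 13, 15.2 and 19.4% in WT P30. All P30 libraries lay below all others, and KO and WT overlapped at both ages. Inclusion fell to 15.8% ± 3.24 in WT P30 (SD, n = 3), against 35.2% ± 4.37 in WT P1 (SD, n = 2), a difference of −19.4 points (limma on log odds, adjusted p = 0.00222). Against WT P10, at 28% ± 6.48, the difference was −12.2 points (adjusted p = 0.0485), a call lost without WT P10 library 5 or 6 (0.353 and 0.061) and without WT P30 library 1 or 2 (0.154 and 0.104). The 174 nt are a multiple of 3, so the exon can be skipped without a shift of the reading frame. Its sequence is shown, with that of a 148 nt exon of Ncoa1, since these are the exons called between ages (5′ to 3′, GENCODE M21 exons of the same length and flanking intron lengths in GRCm38, at chr11:62359761-62359934 and chr12:4297476-4297623, both minus strand).
Ncor1, 174 nt exon: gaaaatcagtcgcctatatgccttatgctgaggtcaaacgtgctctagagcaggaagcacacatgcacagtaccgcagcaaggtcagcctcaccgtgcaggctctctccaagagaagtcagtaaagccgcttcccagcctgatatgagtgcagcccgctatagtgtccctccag
Ncoa1, 148 nt exon: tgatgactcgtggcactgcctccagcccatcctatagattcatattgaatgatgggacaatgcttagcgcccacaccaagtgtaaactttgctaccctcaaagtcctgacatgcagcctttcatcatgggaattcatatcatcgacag

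The 148 nt exon of Ncoa1 (MmuEX0031141, mm9 chr12:4297476-4297623) was included at 96.2, 96.9 and 99.4% in KO P1, 89.4 and 84.4% in WT P1, 96.4, 94.3 and 94.2% in KO P10, 92.6 and 86.2% in WT P10, and 98.8, 98.7 and 99.0% in WT P30. Every WT P1 and WT P10 library lay below every library of the other 3 groups. How many of all events separate KO from WT without overlap was not counted. Among genes in cRPKM it was 18.5% at P1 and 19% at P10. Inclusion rose to 98.8% ± 0.14 in WT P30 (SD, n = 3), against 86.9% ± 3.56 in WT P1 (SD, n = 2), by 12 points (adjusted p = 0.0017). This could not be tested without either WT P1 library, since the mean then exceeds 95. Between KO P1 and WT P1 the difference was 10.6 points (unadjusted p = 0.000517, adjusted p = 0.359), and between KO P10 and WT P10 5.57 points (adjusted p = 1). The 148 nt leave a remainder of 1 when divided by 3.

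Ncor1 also had 2 introns that were retained more at P30. The 2191 nt intron (MmuINT0106703) had 14.4, 11.4 and 8.38% in KO P1, 20.5 and 11.7% in WT P1, 21.8, 23.3 and 17.3% in KO P10, 18.8 and 16.7% in WT P10, and 39.4, 30.4 and 37.0% in WT P30. All P30 libraries lay above all others. Retention rose by 19.4 points in WT P30 over P1 (adjusted p = 0.0134), a call lost without WT P1 library 9 (0.152), and the difference from P10 was 17.8 points (adjusted p = 0.062). The 4041 nt intron (MmuINT0106705) had 17.0, 22.9 and 14.8% in WT P30 against 7.2 and 8.96% in WT P1 (10.2 points, adjusted p = 0.0323), and this call was lost when only the compared groups were fitted (0.0602), with a prior without a trend (0.0575), and without WT P1 library 8 or 9 (0.204 and 0.0906) or WT P30 library 1 or 2 (0.0515 and 0.0931). In KO the 4041 nt intron had 11.7, 10.2 and 10.9% at P10 against 7.72, 10.9 and 6.99% at P1 (2.4 points, adjusted p = 0.718).

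**Figure D5:**
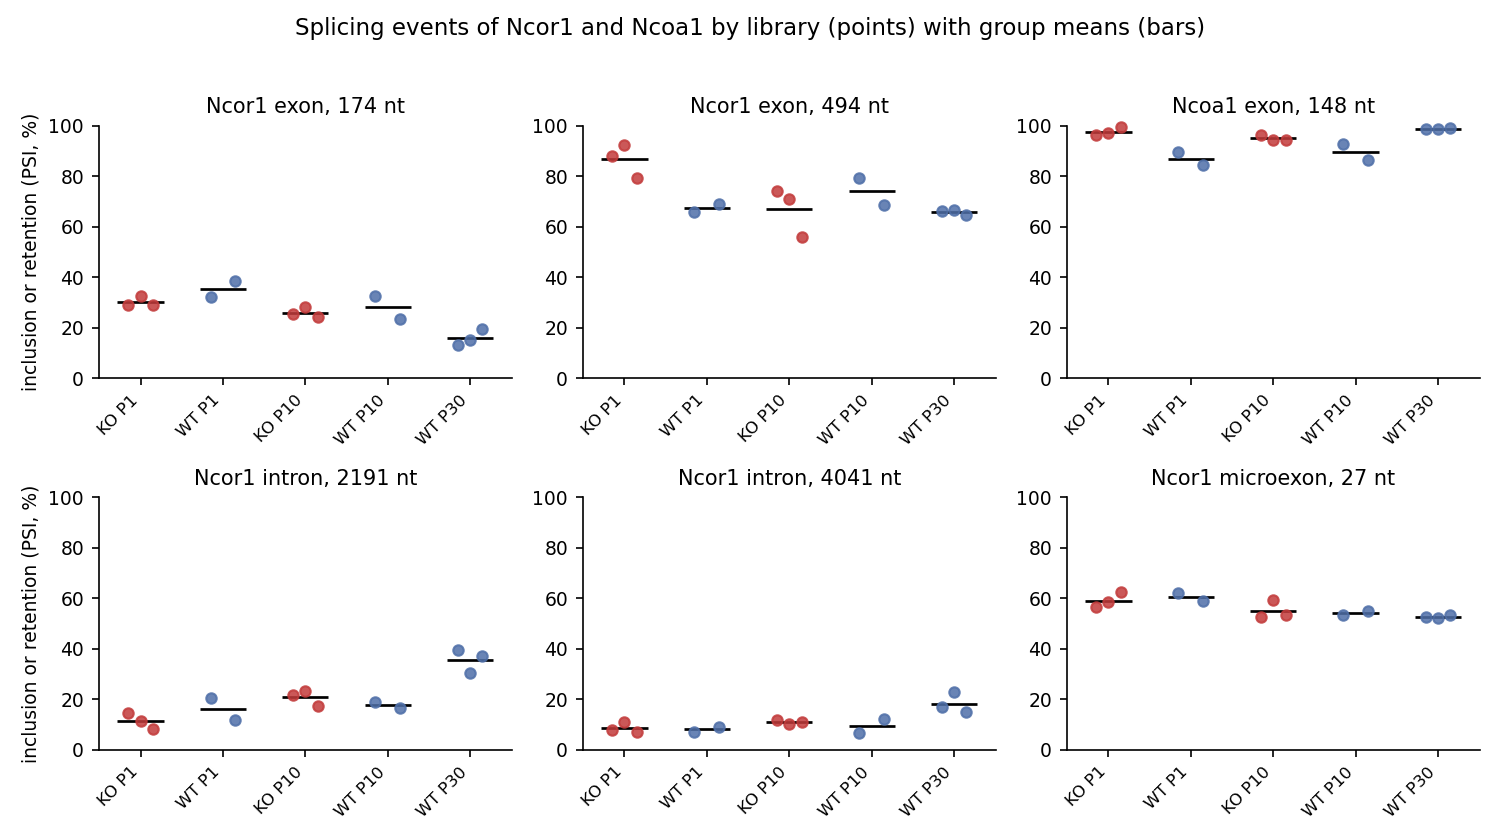
PSI in percent (y axis, 0 to 100) of 6 events of Ncor1 and Ncoa1 in each library (points) of the 5 groups (x axis), with group means as bars; KO is red and WT blue. The 174 nt exon is lowest and both introns are highest in WT P30, the 148 nt exon dips in WT P1 and WT P10, and the 27 nt microexon stays between 52.3 and 62.3% in all 13 libraries.

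Of the events tested, 1 of 29 was called in WT P30 over P10, lower, beside 2.26% of all events called higher, 1.01% lower and 3.27% in either direction. Between WT P30 and WT P1 3 of 29 were called higher and 1 lower, beside 6.7% higher, 4.22% lower and 10.9% in either direction. In WT P10 over P1 0 of 28 were called, beside 0.642% of events, with 1 at an unadjusted p below 0.05, beside 11.8% of events. In KO P10 over P1 0 of 33 were called, beside 0.79%, with 4 at an unadjusted p below 0.05, beside 10.8%. Between KO and WT 0 of 32 were called at P1, beside 0.0218% of events, and 0 of 37 at P10, beside 0.0344%. At an unadjusted p below 0.05 these were 4 at P1, beside 4.46% of events, and 1 at P10, beside 4.4%.

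Among the events between genotypes, the 494 nt exon of Ncor1 (MmuEX0031185, mm9 chr11:62147165-62147658) was included at 87.9, 92.5 and 79.4% in KO P1 and at 65.9 and 69.1% in WT P1, without overlap (19.1 points, unadjusted p = 0.00205, adjusted p = 0.607). By P10 it had 74.2, 70.8 and 55.9% in KO and 79.4 and 68.5% in WT, which overlapped. Between KO P10 and KO P1 the difference was −19.6 points (adjusted p = 0.0725), called without KO P1 library 15 (0.0232). The 49 nt exon near the 3′ end of Ncoa1 (MmuEX0031140) had 40.6, 43.8 and 54.2% in KO P1 and 68.6 and 53.3% in WT P1 (−14.8 points, adjusted p = 1). The 131 nt exon of Hr (MmuEX0023260) had 92.7, 85 and 73.2% in KO P10 and 98.6 and 95.2% in WT P10 (−13.3 points, adjusted p = 0.882). These Hr values, like those of the 494 nt Ncor1 exon at P1, lay apart without passing the test. The share of all events that lie apart was not counted.

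In Slco1c1 the event with the smallest p was a 2874 nt intron (MmuINT0148111), at 0, 0 and 0% in KO P10 against 0, 12.1 and 21.7% in KO P1 (−11.3 points, adjusted p = 0.131). It was called, at −16.9 points, when KO P1 library 13 was left out (adjusted p = 0.00657). In Thrb the smallest p was that of a 109 nt exon (MmuEX0047246), at 4.35, 2.70 and 9.37% in KO P10 against 12, 3.45 and 15.2% in KO P1, on 14 to 35 reads (−4.75 points, adjusted p = 0.671). No event of Thra contrasts the T3-binding form with α2, and 1909 to 4459 reads per library fell on the junction to the α2 end.

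The genes whose cRPKM pattern over the 13 libraries was most like that of each member were found among the 8968 genes that average 5 cRPKM or more. The points share age groups and library depth, so the values of Pearson's r describe likeness only. For Klf9 they were Lcat (r = 0.98), Gpr37l1 (0.974) and Gabrd (0.974), for Hr they included Inpp5a (0.988) and Kcng4 (0.986), and for Dio2 Lcat (0.969), Fa2h (0.968) and Slc22a4 (0.966). For Thra they were Plat (0.949), Nans (0.934) and Smurf1 (0.929), and for Thrb Limch1 (0.93), Furin (0.919) and Kdm2a (0.917). For Ncoa1 they were Rora (0.914), Scn8a (0.884) and Spnb3 (0.859), for Ncor1 Cdk13 (0.878), Tnrc6b (0.869) and Ankrd50 (0.839), and for Slco1c1 Uba3 (0.922), Tmem126b (0.902) and Tax1bp1 (0.884). Lcat was among the 3 nearest genes of both Klf9 and Dio2.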

How the data were processed

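Per the labels' protocols, total RNA of mouse cerebella went through an Illumina TruSeq stranded kit for mRNA, in modified form. FastQC and Trimmomatic and the build mm9 are named in the submitters' processing notes. Which aligner and table program were used is not given in the sources used here. The authors deposited 1 table of expression as cRPKM, an RPKM scaled to mappable transcript length, and 1 table of splicing events with percent inclusion (PSI), beside a quality string with the inclusion and exclusion reads.

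The 8 genes, the gene lists, the tests and the alternatives were chosen with earlier results of these data known. The genes named are all 8 members, up to 4 genes per list with the smallest p in WT P10 over P1, WT P30 over P10 and the genotype comparisons, the 3 genes nearest each member, and each called event or the event with the smallest p per gene; Nr1d1, Slc7a5, Crym, Rxrg, Nr2f1, Carm1 and Nefm were named after their values were seen. Of the genes this rule names, 2 are not reported here. Of 22667 genes 1114 had no value. The expression test took log2(cRPKM + 1) of the 14063 genes whose mean reached 1 cRPKM in any group. The splicing test took log2 odds, 0.5 reads added, of events that had 10 reads or more in 2 or more libraries per group. Of the event entries, 30610 alternative splice sites of no length were left out. Both used limma 3.58.1 (R 4.3.3) in 1 fit of 5 groups with 8 residual degrees of freedom and a trended prior, with p-values adjusted by Benjamini-Hochberg within each comparison. Scripts were tested on simulated data. Tables were read with python 3.11.15, pandas 2.3.3 and numpy 2.4.6. Reads behind cRPKM were estimated from the value of 1 read, which falls with depth, so values of short or low genes in shallow libraries are coarse. Exon sequences come from GENCODE M21 (GRCm38) and promoters from RefSeq; no coordinates were converted from mm9. Alternatives were another pseudocount, filter, read minimum or added reads, centring, library weights, a fit without a trend, only the compared groups, junction reads, deeper libraries only, and each library left out in turn. Libraries of a group shared at most 0.383% identical values, so none repeated the values of another in its group. This cannot show whether they came from separate animals.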

Additional observations from a re-analysis of the deposited data

How the results depend on the processing

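No paired analysis was possible because the library numbers are unique, so the groups share no replicate number. Single values of the 8 genes were recomputed under each alternative. Of 765 values, 743 kept their side of the threshold, 15 lost a call and 7 gained one. For their events the counts were 463, 14 and 2 of 479. Values that were not called changed sign 48 times for the genes and 18 times for the events. No called value changed sign. Of the 8 genes, 5 were called by junction reads in WT P10 over P1 (3 in cRPKM), and in WT P30 over P10 0 with a pseudocount of 0.1 and 4 by junction reads (1 in cRPKM). With a library left out these counts were 1 to 3 in WT P10 over P1, 0 to 1 in WT P30 over P10, 4 to 5 in WT P30 over P1 and 2 to 3 in KO P10 over P1. In an alternative added after the data were seen, only the 8 libraries with at least 1 M reads behind cRPKM were fitted, which left KO P1, KO P10 and WT P10 with 1 library each, assumed to vary like the other groups. Klf9, Hr and Dio2 kept their calls there in WT P10 over P1 (adjusted p = 0.0168, 0.0261 and 0.0191) and in KO P10 over P1 (0.039, 0.0214 and 0.049). Dio2 lost its call in KO P10 over P1 with a pseudocount of 0.1 (adjusted p = 0.0606) and with only the compared groups (0.18).

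Member events called in WT P30 over P10 numbered 0 with 0.1 reads added, with only the compared groups and without a trend (adjusted p of the 174 nt Ncor1 exon 0.0555, 0.143 and 0.192), and 0 to 1 with a library left out. They numbered 1 to 4 in WT P30 over P1 and 0 to 1 in KO P10 over P1 with a library left out.

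Over all genes the calls were 16 without a filter, 1 by junction reads and 35 in the deeper libraries for KO over WT at P1 (main count 5), and 2, 2 and 21 at P10, with 3 in the compared groups alone (main count 1). They were 3544 by junction reads in WT P10 over P1 (569). In WT P30 over P10 they were 3864 in the compared groups, 6260 by junction reads and 3212 with library weights (2074), and in WT P30 over P1 6358, 7915 and 5766, with 6138 in the deeper libraries (3575). In KO P10 over P1 they were 366 in the compared groups, 4770 by junction reads and 349 in the deeper libraries (1430), and for the difference of genotype effects 0, 0 and 26 in the same 3 alternatives (2). With a library left out the counts were 5 to 54, 1 to 27, 200 to 440, 1199 to 1439, 2315 to 2720, 886 to 1786 and 2 to 17, in the order given. Over all events they were 4, 0, 62 and 118 in the compared groups for KO over WT at P1 and P10, WT P10 over P1 and KO P10 over P1 (8, 14, 237 and 311), 4 and 6 without a trend for KO over WT at P1 and P10, and with a library left out 2 to 6, 0 to 16, 68 to 221, 428 to 978, 1778 to 3735 and 137 to 526. The cause of these shifts was not tested. Depth limits the cRPKM of Dio2, Hr and Thrb at P1 most, where 1 read moves the value.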

Other observations

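Intron retention in Slco1c1 varied between libraries of the same group. The mean PSI of its 13 introns was 4.18, 9.04 and 14.4% in KO P1, 9.1 and 5.94% in WT P1, 3.29, 3.13 and 12% in KO P10, 2.41 and 6.06% in WT P10, and 2.63, 3.15 and 1.59% in WT P30. The mean over the 97848 introns with at least 10 reads in each of the 13 libraries was 3.2 to 5.36% in the same libraries.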
